A study of Mus musculus with 6 samples.

Results

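Npm1 and Ncl encode nucleophosmin and nucleolin, the abundant nucleolar proteins B23 and C23, and both were followed here in hearts of 3 wild-type mice and 3 Pgc1b knockout mice. They were represented by the probe sets with values that a platform annotation gives to Npm1 or Ncl alone, which were 4 of the 643 gene probe sets measured. Npm1 had 1 of these probe sets and Ncl had 3, so the 4 probe sets stand for 2 of the 494 genes measured. The genes were selected on their knockout minus wild-type differences in these same arrays. The differences between genotypes are therefore given as a description, with no test, and support nothing by themselves.

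Whole hearts of mice on a mixed sv129 and C57BL/6 background were measured with 1 Affymetrix 3' expression array each. The wild-type hearts carried no named mutation, and the knockout hearts lacked Pgc1b, now named Ppargc1b, a coactivator of nuclear receptors and of genes for mitochondrial metabolism. Neither genotype is described as treated, and the age and sex of the mice are not given in the sources used here. The title places the comparison between mitochondrial function and insulin signalling. The labels call the hearts biological replicates. Each RNA was amplified as whole transcriptome before it was labelled, so differences in amplification are part of the spread between arrays. Ppargc1b itself was not analysed here, so no check of the genotypes on the deleted gene was made.

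The nucleolus is where ribosomal RNA is transcribed, cut, modified and joined to ribosomal proteins. Nucleolin binds the young ribosomal RNA through its RNA recognition domains and takes part in its transcription and early processing. Nucleophosmin acts later, as a chaperone for histones and for ribosomal proteins, and it carries ribosomal particles out of the nucleus by shuttling between nucleus and cytoplasm. Both proteins are known to be abundant in growing cells, and in heart muscle the nucleolus enlarges when cardiomyocytes grow. Ribosomal proteins are the structural partners that these chaperones deliver, and their mRNAs are among the most abundant of any tissue.

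Levels are log2 values, so a difference of 1 is a doubling, and every difference is knockout minus wild-type. The arrays had medians of 7.45 to 7.61 over the 643 gene probe sets, and no pair of arrays held identical values. Control RNAs added to each sample before hybridisation, measured by 18 probe sets, averaged 9.89 ± 0.23 in the wild-type group and 9.52 ± 0.18 in the knockout group (SD, n = 3), and all 3 knockout arrays were lower than any wild-type array. Spiked poly-A RNAs averaged 7.08 ± 0.43 and 7.14 ± 0.58 with overlap. Of 12 cardiomyocyte markers 1 was measured, the cardiac actin Actc1, at 14.11 ± 0.03 and 14.12 ± 0.01 (SD, n = 3). In whole hearts, fewer cells of a type and less RNA per cell cannot be told apart.

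Npm1 was higher in every knockout heart than in any wild-type heart. Its probe set, 1415839_a_at, read 9.45, 9.42 and 9.04 in wild-type replicates 1, 2 and 3, and 9.79, 9.82 and 9.60 in knockout replicates 1, 2 and 3. The lowest knockout heart lay 0.14 above the highest wild-type heart, and wild-type replicate 3 was the lowest of the 6. The means were 9.31 ± 0.23 and 9.74 ± 0.12 (SD, n = 3), a difference of 0.43 (95% interval 0.14 to 0.73 by limma), or a knockout level of 135% of wild type. Leaving out each heart in turn gave differences of 0.30 to 0.51, and the lowest came without wild-type replicate 3. The ending of the probe set's name marks probes shared by several transcripts of the same gene, so transcript forms of Npm1 were not separated. Npm1, like the ribosomal protein genes, has near-identical pseudogene copies, and signal from such copies could not be told apart from that of the gene.

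**Figure D1:**
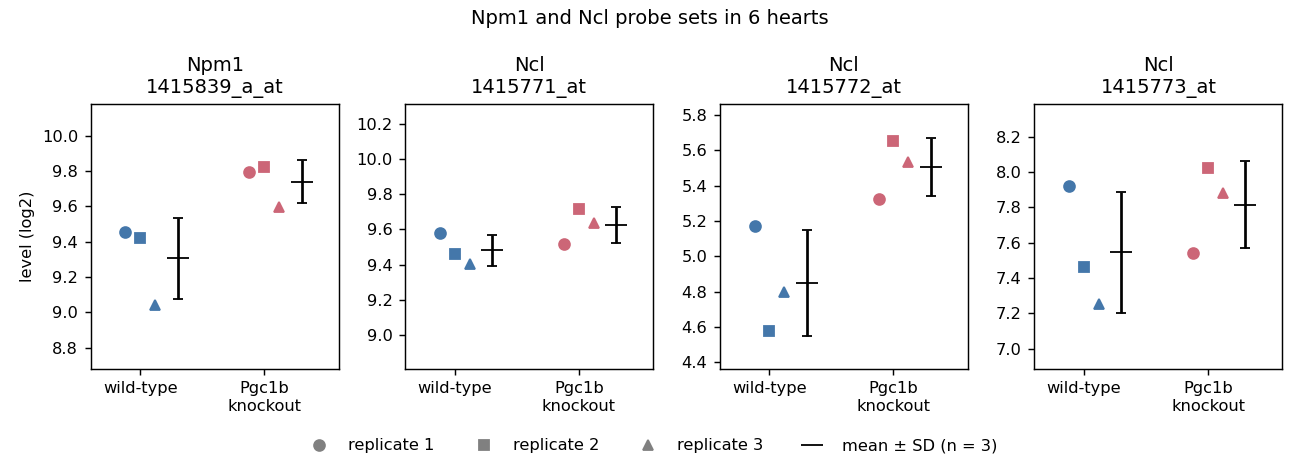
Level (log2) of the Npm1 probe set and the 3 Ncl probe sets in each heart, with wild-type in blue, Pgc1b knockout in red, a symbol per replicate number and mean ± SD (n = 3) in black. Each vertical axis spans the same number of log2 units but starts at a different level. The knockout hearts lie above all wild-type hearts for Npm1 and for Ncl 1415772_at, and the genotypes overlap in the other panels.

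Ncl was measured by 3 probe sets, which all had higher means in knockout hearts, as had 54.3% of all probe sets, but differed in how far the genotypes separated. The Ncl promoter is shown because Npm1 had no entry among the promoter sequences used, and it comes from RefSeq, assembly GRCm38.p6. The stretch covers 250 bases before the annotated start, at chr1:86359456-86359705 on the minus strand, written 5′ to 3′ with matches to the GC box GGGCGG, on either strand, in capitals.
Ncl upstream: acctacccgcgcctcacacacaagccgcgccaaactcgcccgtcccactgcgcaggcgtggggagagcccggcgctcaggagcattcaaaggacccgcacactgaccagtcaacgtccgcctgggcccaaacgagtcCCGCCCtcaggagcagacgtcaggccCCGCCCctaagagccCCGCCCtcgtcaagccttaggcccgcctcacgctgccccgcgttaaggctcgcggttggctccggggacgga
These bases held 3 matches to the GC box, which begin 113, 87 and 72 bases before the start and do not overlap. At least 1 such match occurred in 32.7% of 32851 promoters of that length, each counted by itself. It occurred at any listed start in 4 of the 10 measured ribosomal protein genes with an entry, so these shares differ in unit. The stretch had 69.6% G and C, against a median of 52.4% over those promoters. The letters CACGTG of the E-box, AAGGTCA of the oestrogen-related receptor site and CCGGAAG of ETS factors, and the NRF1 motif, all searched on both strands, had no match in this window. They were found in 6.02%, 4.08%, 6.91% and 3.74% of all promoters. At any listed start they occurred in 1, 0, 6 and 1 of the same 10 ribosomal protein genes, again in a different unit. A match or its absence describes these letters only.

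Of the Ncl probe sets, 1415772_at alone separated the genotypes. It read 5.17, 4.58 and 4.80 in wild-type replicates 1, 2 and 3, and 5.33, 5.65 and 5.53 in the knockout replicates in the same order. All knockout hearts lay above all wild-type hearts, by 0.15 between the nearest pair, which was knockout replicate 1 and wild-type replicate 1. The means were 4.85 ± 0.30 and 5.50 ± 0.16 (SD, n = 3), a difference of 0.65 (95% interval 0.28 to 1.03), or 157% of wild type. All 6 hearts lay below 6, the level under which genes are called dim here. No detection call was used, so this probe set has no check against background, and its percentage and its rank among all probe sets are given with that limit. Levels of different probe sets are not compared with each other, since probes differ in how brightly they bind.

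The other probe sets of Ncl overlapped between genotypes. Probe set 1415771_at read 9.58, 9.46 and 9.41 in wild-type and 9.52, 9.72 and 9.64 in knockout hearts, with means of 9.48 ± 0.09 and 9.62 ± 0.10 (SD, n = 3). Its difference was 0.14 (95% interval -0.06 to 0.34). Here knockout replicate 1 lay below wild-type replicate 1. Probe set 1415773_at read 7.92, 7.46 and 7.25 in wild-type and 7.54, 8.02 and 7.88 in knockout hearts, a difference of 0.27 (95% interval -0.17 to 0.71). Its wild-type replicate 1 was above 2 of the 3 knockout hearts. The difference of 1415773_at became 0.12 without wild-type replicate 3, 0.17 without knockout replicate 2, 0.46 without wild-type replicate 1 and 0.41 without knockout replicate 1.

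Taken over its 3 probe sets, Ncl averaged 7.56, 7.17 and 7.15 in the wild-type hearts and 7.46, 7.80 and 7.68 in the knockout hearts. The mean difference was 0.36 (95% interval -0.10 to 0.81 from a linear model of the 6 array means), with overlap through wild-type replicate 1 and knockout replicate 1. The dim probe set 1415772_at carried most of it, and the mean of the other probe sets of Ncl differed by 0.21 (95% interval -0.24 to 0.65). Within genotype the Ncl probe sets moved together. The correlation of their deviations from the genotype means over the 6 hearts was 0.97 between 1415771_at and 1415773_at, 0.83 between 1415772_at and 1415773_at, and 0.81 between 1415771_at and 1415772_at. Npm1 followed them less closely, with 0.54, 0.45 and 0.16 against 1415773_at, 1415771_at and 1415772_at. These are descriptions over 6 hearts that share arrays, and whether they differ was not tested.

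Among all 643 probe sets the differences had a median of 0.01 and ran from -0.55 to 0.94. By size of the positive difference, Ncl 1415772_at was at rank 3, Npm1 at rank 9, Ncl 1415773_at at rank 32 and Ncl 1415771_at at rank 110. All knockout hearts lay above all wild-type hearts in 2 of the 4 member probe sets, and in 62 of the 643, or 9.64%. Nothing is read from that count, since this contrast chose the genes. Centring each array on its median left 2 of the 4 and 4.67% of all. Limma called 0 of the 643 probe sets after Benjamini-Hochberg adjustment, neither member included, while 66 had an unadjusted p under 0.05, or 10.3%, and 42 once knockout replicate 2 was left out. Letting the prior variance follow the level, it called 2 probe sets, neither of them a member.

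**Figure D2:**
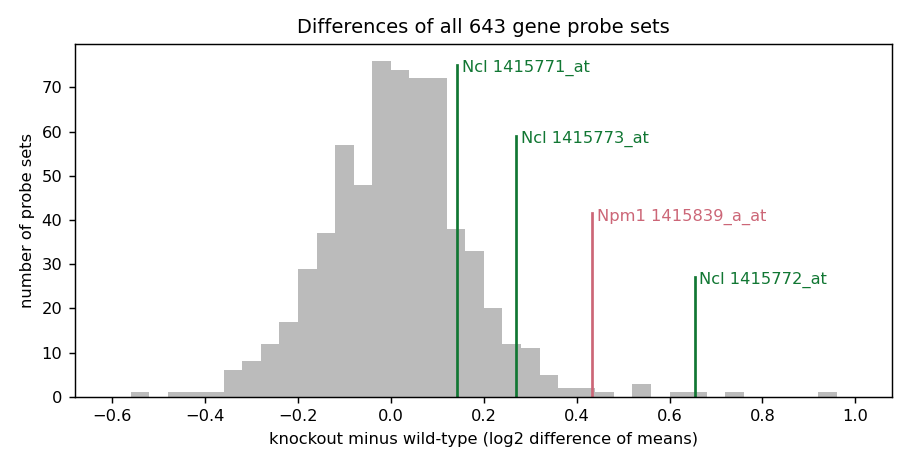
Number of probe sets (vertical axis) by knockout minus wild-type difference of means (log2, horizontal axis) for all 643 gene probe sets, in bins of equal width. The vertical lines mark the member probe sets, at 0.14, 0.27 and 0.65 for Ncl and 0.43 for Npm1, all to the right of the median of 0.01.

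The hybridisation spikes moved with genotype, so the member differences are also given with the spike level of each array as a covariate. They were then 0.71 for Npm1, 0.91 for Ncl 1415772_at, 0.64 for Ncl 1415773_at and 0.25 for Ncl 1415771_at, each larger than without it. Within genotype, hearts with a higher spike level had higher member levels, with correlations of deviations of 0.84 for Npm1 and 0.63, 0.59 and 0.69 for Ncl 1415771_at, 1415772_at and 1415773_at over 6 arrays. The excess of the Actb 3' over its 5' probe set, which grows with RNA decay, averaged 0.75 ± 0.02 in wild-type arrays and 0.63 ± 0.11 in knockout arrays (SD, n = 3). It was lower in every knockout heart, though narrowly, with 0.737 in wild-type replicate 2 and 0.731 in knockout replicate 2. The same excess for Gapdh averaged 0.079 ± 0.086 and 0.078 ± 0.11, with overlap. The part of RNA decay in the member differences was not tested.

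Cytosolic ribosomal proteins, the cargo of the nucleolus, were also higher on average in the knockout hearts. Their mean over 12 measured genes was 10.88, 10.88 and 10.86 in the wild-type hearts and 10.96, 11.01 and 11.00 in the knockout hearts. Every knockout heart lay above every wild-type heart, with a difference of 0.12 (95% interval 0.07 to 0.17), or 0.08 with each array centred on its median. The exact two-sided permutation test gave p = 0.1, the smallest that 3 against 3 allows. This list was chosen with earlier results of these data known, so that p-value is no independent support. Of the 12 genes, 10 had higher and 2 had lower means in knockout hearts, where 52.4% of all genes had higher ones, with a median difference of 0.14 beside 0.01 over all 494 genes.

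In 7 of the 12 genes all knockout hearts lay above all wild-type hearts, where 9.51% of all genes did. With each array centred on its median this was 3 of the 12, beside 4.66% of all genes. None of the 12 passed limma after adjustment, and 4, namely Rps4x, Rpl7, Rpl37a and Rpl35, had an unadjusted p under 0.05 and were higher, where 5.67% of all genes were. After centring this was 0 of the 12, where 14 of all 494 genes were. These counts have the same limit as the p-value above, since the list was chosen with earlier results known. Centring also changed the split of all probe sets at an unadjusted p under 0.05, from 34 higher and 32 lower to 19 higher and 47 lower.

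The largest positive differences were those of Rps4x, a small-subunit protein, and of Rpl7 of the large subunit. Rps4x read 12.08, 11.95 and 11.88 in wild-type and 12.17, 12.26 and 12.11 in knockout hearts, a difference of 0.21 (95% interval 0.02 to 0.40). Rpl7 read 11.77, 11.67 and 11.60 in wild-type and 11.86, 11.90 and 11.87 in knockout hearts, a difference of 0.20 (0.04 to 0.37). In both genes wild-type replicate 3 was the lowest heart, as it was for Npm1. Rps15, of the small subunit, differed by 0.18 (-0.01 to 0.38) in its brighter probe set and by 0.07 in the other. Rplp2, a protein of the stalk that binds elongation factors, read 12.39 ± 0.05 and 12.39 ± 0.10 (SD, n = 3), and Rpsa, a small-subunit protein also known as laminin receptor, 3.64 ± 0.14 and 3.51 ± 0.05. Without Rpsa, the single gene with a mean below 6, the ribosomal protein mean differed by 0.14.

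**Figure D3:**
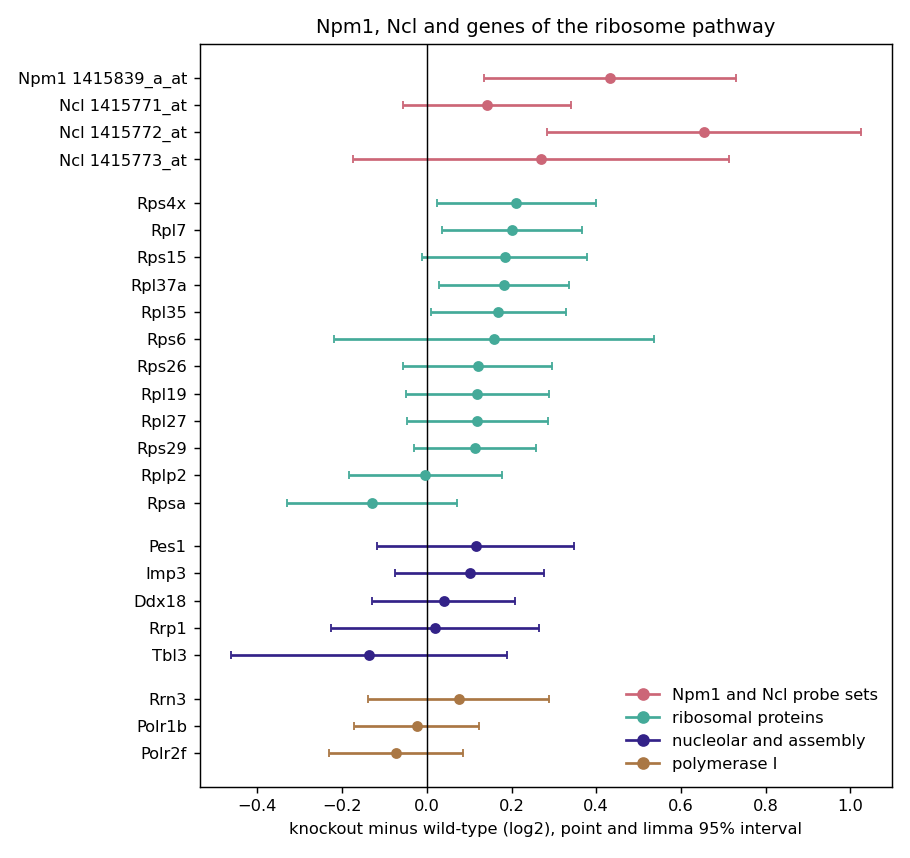
Knockout minus wild-type difference (log2, points) with limma 95% intervals (bars) for the Npm1 and Ncl probe sets, 12 ribosomal protein genes, 5 genes of the nucleolar and assembly list and 3 genes of the polymerase I list. The Npm1 and Ncl points run from 0.14 to 0.65, ribosomal protein genes from -0.13 to 0.21, and the nucleolar genes from -0.14 to 0.12.

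Other nucleolar and ribosome assembly factors had differences between -0.14 and 0.12. Of the 129 genes of this list, 5 were measured, with Npm1 and Ncl kept out of it, and 0 passed limma, 0 also at an unadjusted p under 0.05, where 11.5% of all genes were. Imp3, a protein of the small-subunit processome, read 7.80, 7.89 and 7.87 in wild-type and 8.06, 7.90 and 7.90 in knockout hearts, a difference of 0.10 without overlap, which became 0.047 without knockout replicate 1. Pes1, a large-subunit assembly factor, had a difference of 0.12 (95% interval -0.12 to 0.35), which became 0.018 without knockout replicate 2 and 0.18 without knockout replicate 1. Its dimmer probe set gave -0.14, with all knockout hearts below all wild-type hearts. Ddx18, an RNA helicase of the large-subunit path, differed by 0.04 and its dimmer probe set by 0.02, and Rrp1, an rRNA processing factor, by 0.02. Tbl3, a processome protein, differed by -0.14 (-0.46 to 0.19). Both Pes1 and Tbl3 were dim, with means below 6 in both genotypes.

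The 5 genes averaged 6.76 ± 0.04 in the wild-type group and 6.78 ± 0.10 in the knockout group (SD, n = 3), 0.03 apart (95% interval -0.15 to 0.21, exact two-sided permutation p = 0.8, smallest possible 0.1). Its sign turned to -0.02 without knockout replicate 2 and with each array centred on its median. The median difference of the list was 0.04. Whether it differs from that of Npm1 was not tested. Of 20 genes for polymerase I, which transcribes ribosomal RNA, 3 were measured. Of these, 0 had an unadjusted p under 0.05, where 11.5% of all genes did. Rrn3, the initiation factor that brings the polymerase to ribosomal DNA, differed by 0.08, the subunit Polr1b by -0.02 and the shared subunit Polr2f by -0.07. Polr1b was dim, below 6 in every heart.

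Across the 6 hearts, all member probe sets correlated positively with the ribosomal protein mean. Pearson's r was 0.83 for Npm1 and 0.83, 0.89 and 0.66 for Ncl 1415771_at, 1415772_at and 1415773_at, with Spearman's rho of 0.94, 0.94, 0.94 and 0.83. The hearts fall into separate clusters by genotype on the ribosomal protein axis, so these values contain the difference that chose the genes and are given with no p. Without knockout replicates 2 and 3, the hearts farthest from the median of the ribosomal protein mean, r was 0.91 for Npm1 and 0.40, 0.71 and 0.17 for the Ncl probe sets in the same order. The pooled values of Ncl 1415771_at and 1415773_at thus depended on those hearts, without which 1 knockout heart is left. Within the 3 wild-type hearts their r was 0.76 and 0.77.

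**Figure D4:**
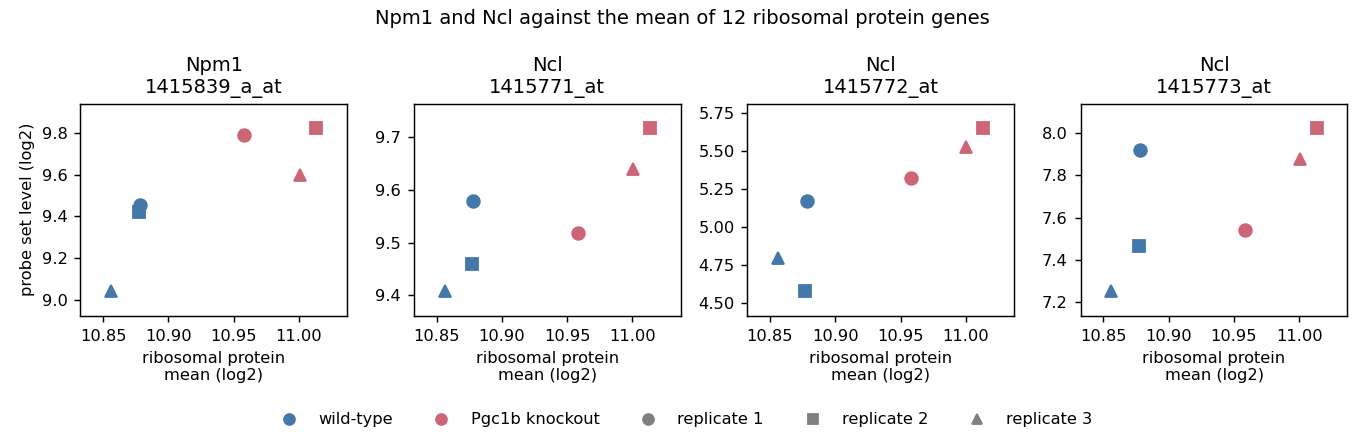
Level of each member probe set (log2, vertical axis) against the mean of 12 ribosomal protein genes (log2, horizontal axis) in the same heart, with wild-type in blue, Pgc1b knockout in red and a symbol per replicate number. The wild-type hearts lie at 10.86 to 10.88 and the knockout hearts at 10.96 to 11.01 on the horizontal axis, with a gap between them.

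With genotype removed, by taking deviations from the genotype means, the correlation ran from 0.28 to 0.88. With the ribosomal protein mean over 6 hearts it was 0.88 for Ncl 1415771_at (exact permutation within genotype, two-sided p = 0.0556, adjusted 0.111), 0.78 for Ncl 1415773_at (exact p = 0.0278, the smallest possible, adjusted 0.111) and 0.50 for Ncl 1415772_at (exact p = 0.25, adjusted 0.333). For Npm1 it was 0.28 (exact permutation p = 0.528, adjusted 0.528). Values were adjusted over these 4 relations by Benjamini-Hochberg and none passed. That could hardly be otherwise, since the relation at the smallest possible p was adjusted to 0.111. Spearman's rho was 0.83, 0.77, 0.66 and 0.26 in the same order, with adjusted exact permutation p-values of 0.0556, 0.0556, 0.148 and 0.50. The relation with this mean was named when the genes were chosen, with earlier results of these data known. None of these p-values is therefore independent support. Among the 12 genes Rps6 spread most within genotype, so it weighs most in the deviations of their mean. It read 6.65, 7.18 and 7.25 in knockout replicates 1, 2 and 3. Taken gene by gene with genotype removed, the median r with Ncl 1415771_at was 0.07. How far the r values with the mean follow Rps6 was not tested.

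Without knockout replicates 2 and 3 a single knockout heart is left, which has no deviation from its own mean, so r then comes from the 3 wild-type hearts alone. It was 0.76 for Ncl 1415771_at, 0.77 for Ncl 1415773_at, 0.18 for Ncl 1415772_at and 1.00 for Npm1, while within the 3 knockout hearts Npm1 gave -0.17. Centring each array on its median gave 0.38, 0.11 and -0.07 for the Ncl probe sets in that order and 0.80 for Npm1. Further quantile normalization gave 0.81, 0.90 and 0.54 for Ncl and 0.89 for Npm1. After adjustment none passed under either scaling, where the same smallest possible p left little room to pass. The Npm1 value was larger under both scalings than as deposited, while the Ncl values were all smaller after centring and went both ways after quantile normalization. Leaving out single hearts, the Npm1 value was -0.17 without wild-type replicate 3 and 1.00 without knockout replicate 1. Deviations of all 643 probe sets had a median correlation of 0.18 with the same mean, and 58.0% were above 0.

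The 5 genes most like each member were sought among the other 493 genes by Pearson's r over the 6 hearts. For Npm1 these were Psmc4, an ATPase of the proteasome (0.99), Gart, an enzyme of purine synthesis (0.97), Kitl, the ligand of the receptor Kit (0.96), Rps4x (0.94) and Rpl7 (0.94). Psmc4 read 9.01, 8.98 and 8.79 in wild-type and 9.24, 9.23 and 9.04 in knockout hearts, with replicate 3 lowest in both genotypes, the same order as Npm1 apart from the 2 brightest knockout hearts. Its correlation with Npm1 after removing genotype was 0.97. The dimmer Psmc4 probe set differed by 0.03, against 0.24 in the probe set used here.

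For Ncl 1415771_at, the brightest Ncl probe set, the nearest genes were Cops4, a COP9 signalosome subunit (0.99), Hspa4, a chaperone of the heat shock family (0.97), Pfdn5, a subunit of prefoldin (0.95), Rars, the arginyl-tRNA synthetase (0.95), and Hnrnph1, a splicing regulator (0.95). Cops4 read 8.90, 8.77 and 8.68 in wild-type and 8.82, 9.10 and 8.95 in knockout hearts, with overlap as in Ncl. With genotype removed, these 5 genes correlated with Ncl 1415771_at at 0.92 to 0.99. Ribosomal protein genes had positive r with Npm1 in 10 of 12 genes and with Ncl 1415771_at in 11 of 12, with medians of 0.53 and 0.51 beside -0.01 and 0.03 over all other genes. The lowest was Rplp2 with Ncl, at -0.65. These values also contain the genotype difference that chose the members. With genotype removed, r with Npm1 was above 0 in 5 of the 12 genes and below 0 in 7, from -0.92 for Rpl37a to 0.82 for Rps4x, with a median of -0.16 beside -0.11 over all other genes. For Ncl 1415771_at it was above 0 in 6 and below 0 in 6, with a median of 0.07 beside 0.06. Within genotype, Rps6 spread most among the 12, with a pooled SD of 0.25 against 0.021 to 0.10 in the others. Likeness over 6 hearts shares array, amplification and genotype, and is a description.

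Translation factors differed by -0.10 to 0.12. Of 48 translation factors, 7 were measured, 6 with higher and 1 with lower means, where 52.4% of all genes had higher ones, and 0 had an unadjusted p under 0.05, where 11.5% of all genes were. Eif3i and Eif3h, subunits of the initiation factor that loads the small ribosomal subunit, differed by 0.12 and 0.07. In these 2 of the 7 genes all knockout hearts lay above all wild-type hearts, as in 9.51% of all genes. Eif3d differed by 0.07, Eif3c by 0.05 (0.10 in its dimmer probe set), Eif4g2 by 0.01 and Eif5, which triggers GTP hydrolysis at the start codon, by -0.10.

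Of the 26 genes listed as partners, 4 were measured, and 0 had an unadjusted p under 0.05, where 11.5% of all genes did. Kpna2, an importin that carries proteins with nuclear localisation signals, read 8.57, 9.62 and 8.96 in wild-type and 8.92, 9.97 and 9.39 in knockout hearts. Its difference of 0.38 (95% interval -0.38 to 1.13) was within the spread of the hearts, and became 0.11 without knockout replicate 2 and 0.67 without wild-type replicate 2. The growth factors Mdk and Ptn, which bind nucleolin at the cell surface, differed by -0.08 and 0.01, and Ptn was dim, below 6 in every heart. Ywhaz, a 14-3-3 protein, differed by -0.02 in its brighter probe set and by -0.33 (95% interval -0.71 to 0.06) in the other. Among Myc and its targets, 1 of 21 genes was measured, the cyclin Ccnd2, with a difference of 0.09 in its brightest probe set and of -0.06 and -0.02 in the others.

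Markers of dividing cells, in which both members are abundant, were measured for 4 of 11 genes, with 2 higher and 2 lower means. At an unadjusted p under 0.05 there were 0, beside 11.5% of all genes. The replication helicase subunits Mcm4, Mcm7, Mcm5 and Mcm6 differed by 0.11, 0.07, -0.02 and -0.06. Of these, Mcm4 and Mcm5 were dim, below 6 in every heart. Of the other cell types, 1 of 7 endothelial markers was measured, Tie1 (-0.08), 1 of 5 neutrophil markers, Mpo (0.10), and 2 of 6 red cell markers, Bpgm (0.31, 95% interval -0.14 to 0.77) and Car1 (0.13). The dimmer Bpgm probe set differed by 0.46. None of these 4 separated the genotypes, and Mpo and Car1 were dim, below 6 in every heart. Single hearts moved all 4 differences. Car1 was 0.0064 without wild-type replicate 2 and 0.22 without wild-type replicate 3. Mpo was 0.024 without knockout replicate 1 and 0.15 without knockout replicate 3. Bpgm was 0.17 without knockout replicate 1, 0.18 without wild-type replicate 1 and 0.52 without knockout replicate 2. Tie1 was -0.024 without knockout replicate 1, -0.054 without wild-type replicate 1 and -0.16 without knockout replicate 3. Markers of fibroblasts, smooth muscle, macrophages, lymphocytes and fat were not analysed here, so the part of cell make-up in the Npm1 and Ncl differences was not tested.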

How the data were processed

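The deposited table holds log2 values, 1 column per array. Per the submitters' processing notes, the authors used GCOS, Partek and RMA, with no version or order stated. RMA gives all arrays a common distribution, so differences are relative to the other genes. No source used here names a genome build. Values were present in 707 of 45101 rows, 643 for genes and 64 for controls, and other rows were not analysed here. Platform annotation gave 1 symbol to 597 probe sets (494 genes), several to 26 and none to 20, and symbols were updated through RefSeq gene IDs. Lists used the brightest probe set per gene.

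The fit used limma 3.58.1 under R 4.3.3 (lmFit, eBayes, two-sided, no covariate) on all 643 probe sets and on 494 genes, tested on simulated data first. Array means used exact permutation tests. Arrays have no depth, and the precision is limited by their number. Members and lists were chosen with earlier results of these data known. Named genes were all measured list genes, up to 12 for the nucleolar list and 6 for the others, the 3 extreme ribosomal protein genes per direction and the 5 genes most like each member. Rpl35, Rpl37a and Rps6, outside that rule, were named after their values were seen.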

Additional observations from a re-analysis of the deposited data

How the results depend on the processing

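With 3 hearts per genotype, small differences are not resolved, and with only 643 of the array's probe sets every scaling leans on a small set of genes. The member differences kept their direction in every alternative run. With the hybridisation spike covariate they were 0.71 for Npm1 and 0.252, 0.913 and 0.643 for Ncl 1415771_at, 1415772_at and 1415773_at. Leaving out each heart gave 0.30 to 0.507 for Npm1, and 0.0965 to 0.197, 0.517 to 0.816 and 0.123 to 0.458 for those Ncl probe sets. The cause was not tested for these or the changes that follow. The ribosomal protein mean differed by 0.0766 with arrays centred on their median, by 0.143 with dim genes left out, and by 0.109 to 0.136 without single hearts, and 3 ribosomal protein genes separated the genotypes after centring. The nucleolar list mean was -0.00304 after quantile normalization, -0.0159 after centring and -0.0226 to 0.0795 without single hearts. Probe sets at an unadjusted p under 0.05 numbered 42 to 88 without single hearts, those higher in knockout 20 to 52, and 19 after centring, and 2 passed adjustment with a prior variance following the level. The mean over the Ncl probe sets was 0.206 without the dim one, an alternative chosen after seeing the data. The within-genotype correlation with the ribosomal protein mean was -0.0718 for Ncl 1415772_at after centring and -0.167 to 0.999 for Npm1 without single hearts.

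The labels number hearts 1 to 3 in both genotypes without saying that numbers pair them. Deviations of same-numbered hearts correlated at -0.24, -0.10 and 0.19 over all probe sets, and those of differently numbered hearts at -0.30 to 0.33. With deviations from means of 3 hearts these values cannot decide whether the numbers pair the samples. With the replicate block the Npm1 difference was again 0.43, and 51 probe sets had an unadjusted p under 0.05 against 66 without it. After adjustment 0 passed either way, so the block changed no call.

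Of the 41 other named genes, 23 kept their sign in 11 alternatives, 17 did not, and 1, Eif3d, had a difference of 0 after quantile normalization. Quantile normalization gave -0.026 for Eif3c, -0.00413 for Gart, -0.0282 for Ptn, -0.0151 for Rrp1 and 0.00888 for Ywhaz. Centring gave -0.0352 for Actc1, -0.00414 for Ddx18, -0.0364 for Eif4g2, -0.0288 for Ptn and -0.025 for Rrp1. The hybridisation spike covariate gave -0.0488 for Bpgm, -0.0164 for Ccnd2, -0.000462 for Eif4g2, 0.0218 for Mdk and -0.198 for Ptn. Array weights gave 0.0936 for Ywhaz. Leaving out each heart gave -0.00302 to 0.0277 for Actc1, -0.00236 to 0.206 for Ccnd2, -0.000559 to 0.0738 for Ddx18, -0.0141 to 0.106 for Eif3c, -0.0286 to 0.0769 for Eif4g2, -0.0708 to 0.0537 for Mcm5, -0.201 to 0.0149 for Mcm6, -0.022 to 0.128 for Mcm7, -0.133 to 0.00532 for Mdk, -0.0494 to 0.111 for Ptn, -0.0616 to 0.0335 for Rplp2, -0.0126 to 0.136 for Rrn3, -0.0682 to 0.0848 for Rrp1, -0.222 to 0.0194 for Tbl3 and -0.301 to 0.203 for Ywhaz.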
